A study of Mus musculus with 11 samples.

Results

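The Lin28, Igf2bp, Hmga2 and Plag1 genes, a group known for expression in fetal tissues, were followed in muscle satellite cells of mice at 3 postnatal ages. The group was a list of 7 genes (Lin28a, Lin28b, Igf2bp1, Igf2bp2, Igf2bp3, Hmga2 and Plag1), and every probe set annotated with 1 of these symbols alone was taken. Such probe sets were found for 6 of the 7 genes, 19 probe sets among the 45037 tested, and Igf2bp2 is not analysed here. Lin28a had 2 probe sets, Lin28b 1, Igf2bp1 4, Igf2bp3 6, Hmga2 4 and Plag1 2. Satellite cells are muscle stem cells, and the series compared postnatal days 1 (P1, 4 arrays), 12 (P12, 4 arrays) and 28 (P28, 3 arrays) to cover proliferating and quiescent cells. All mice were Pax3GFP/+ on a C57BL/6J background, so that every group carries green fluorescent protein (GFP) at a Pax3 allele, and live cells were sorted for GFP. Cells came from trunk muscles labelled as holding proliferating satellite cells at P1 and P12, and from abdominal, pectoral and intercostal muscle at P28. The internal sample names of the P28 arrays start with the P1 code and end in another suffix, and these arrays were taken as P28 by title and stated age. Age, muscle and anything behind that suffix cannot be told apart for P28. Arrays of 1 age are titled as biological replicates with no number of animals given, and if they were not separate animals, the p-values measure technical spread only.

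Lin28a and Lin28b are RNA-binding proteins that bind the precursors of the let-7 microRNAs and block their maturation, with the help of enzymes that add uridines to the precursor. Mature let-7 microRNAs accumulate as tissues differentiate and repress messenger RNAs that carry matches to their seed, among them those of Hmga2, the Igf2bp proteins and Lin28 itself. The Igf2bp proteins bind messenger RNAs such as those of Igf2, Myc and beta-actin and change their stability, transport or translation. Hmga2 is a chromatin protein that binds AT-rich DNA and is known from the self-renewal of young stem cells and the growth of myoblasts, and Plag1 is a zinc finger transcription factor that activates Igf2.

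The let-7 family is printed because its shared seed is what links Hmga2, the Igf2bp genes and Lin28. The mature microRNAs below are from RefSeq (GRCm38.p6), 5′ to 3′, with the seed, bases 2 to 8, in capitals. The array did not measure mature microRNAs, so no level of let-7 is given.
let-7a-5p: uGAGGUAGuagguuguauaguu
let-7b-5p: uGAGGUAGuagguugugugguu
let-7c-5p: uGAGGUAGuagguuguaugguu
let-7d-5p: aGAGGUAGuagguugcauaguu
let-7e-5p: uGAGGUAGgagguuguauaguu
let-7f-5p: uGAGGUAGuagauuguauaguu
let-7g-5p: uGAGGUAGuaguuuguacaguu
let-7i-5p: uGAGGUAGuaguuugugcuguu
miR-98-5p: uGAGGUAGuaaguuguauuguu
All of these carry the seed GAGGUAG, which pairs with CUACCUC in a messenger RNA, and 11 of the 1679 mature microRNAs in the table hold it. The other printed sequences differ from let-7a-5p outside the seed by 1 to 4 bases.

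The 250 bases before the transcription start are shown for Hmga2 and Igf2bp3, which both fell between P1 and P12. A window was given for 5 of the 7 genes. Both windows lie on the minus strand of RefSeq's GRCm38.p6, at chr10:120476470-120476719 for Hmga2 and at chr6:49214955-49215204 for Igf2bp3, and are printed 5′ to 3′ along the gene with motif matches in capitals.
Hmga2: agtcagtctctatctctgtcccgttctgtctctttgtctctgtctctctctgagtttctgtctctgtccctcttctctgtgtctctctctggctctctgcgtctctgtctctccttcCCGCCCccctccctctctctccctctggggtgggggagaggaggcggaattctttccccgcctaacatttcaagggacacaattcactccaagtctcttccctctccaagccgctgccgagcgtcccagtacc
Igf2bp3: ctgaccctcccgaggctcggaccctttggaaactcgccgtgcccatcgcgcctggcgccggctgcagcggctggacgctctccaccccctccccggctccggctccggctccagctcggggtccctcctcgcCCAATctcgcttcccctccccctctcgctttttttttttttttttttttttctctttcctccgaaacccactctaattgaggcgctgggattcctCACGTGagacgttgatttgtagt
Both strands were searched for 4 motifs: the E-box CACGTG, the box CCAAT, the box GGGCGG of Sp factors, and the letters TATAAA. No 2 matches overlap in these windows. The Hmga2 window holds 1 match to GGGCGG, which 32.7% of the 32851 promoter windows hold. In the Igf2bp3 window there is 1 match to CACGTG, present in 6.02% of windows, and 1 to CCAAT, present in 33.8%. TATAAA, present in 12.4% of windows, was in neither. Hmga2 has 56.4% and Igf2bp3 60.4% GC in these bases, against a median of 52.4% over all windows. These matches describe letters and not binding.

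Levels are log2 RMA values, in which a step of 1 is a doubling, and values of different probe sets cannot be compared with each other. The 95th percentile of 86 probe sets of smell and taste receptor genes was used as the background level, at 5.26 at P1, 5.24 at P12 and 4.98 at P28. All 9 satellite cell markers looked at, including Pax7, Myf5 and Pax3, whose locus set the sort gate, were above it at every age. Messenger RNA end bias, measured as the 3′ minus 5′ difference of Gapdh, was 2.59 and 2.79 on P1 replicates 1 and 2, 1.69 and 1.62 on P1 replicates 3 and 4, 2.64 and 3.05 on P12 replicates 1 and 2, 1.32 and 1.38 on P12 replicates 3 and 4, and 0.79 to 0.99 at P28. Every P28 array was thus below all others. A fit with this difference as a covariate can therefore also take away an age difference of P28, and a call lost in it cannot be assigned to end bias. Between P1 and P12, 1 of 7 mesenchymal (Pdgfra) and 1 of 6 macrophage and leukocyte markers (Cd68) fell, 2 of 5 proliferation markers rose, 2 of 7 myonuclear and differentiation markers rose (Myog by 0.90 and Mymk by 1.33) and 2 fell (Myh3 by -0.76 and Myh8 by -1.93), and 0 of 6 endothelial markers passed. Between P12 and P28, 6 of 6 endothelial, 4 of 7 mesenchymal, 3 of 6 macrophage and leukocyte and 2 of 3 erythroid markers rose, while 5 of 5 proliferation markers fell. In this step 2 of 7 myonuclear and differentiation markers rose (Ckm by 3.96 and Acta1 by 2.21) and 2 fell (Myh3 by -1.32 and Myh8 by -1.64). Of 9 satellite cell markers 1 rose between P1 and P12 (Sdc4 by 0.63) and 2 between P12 and P28 (Sdc4 by 1.86 and Des by 1.60). The summed level of the endothelial markers was 8.41 to 9.23 at P1, 8.80 to 9.37 at P12 and 10.66 to 11.29 at P28, and Pecam1, Emcn and Tie1 were not above background at P1, nor Emcn and Tie1 at P12. Mesenchymal sums were 13.42 to 14.11, 13.50 to 14.13 and 14.14 to 14.65, macrophage sums 9.82 to 10.47, 9.54 to 9.69 and 10.23 to 11.22 (with Ptprc not above background at P1), and erythroid sums 6.72 to 7.35, 7.28 to 8.04 and 10.12 to 12.49 (with Hba-a1 not above background at any age and Slc4a1 not at P1). The part of these cells in the results below was not tested. In sorted pools, fewer cells of a type and less RNA per cell cannot be told apart.

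More of the fetal probe sets fell in the first step, P1 to P12, than in the second, while the count by gene depends on the probe sets taken. At an adjusted p under 0.05 (limma, two-sided, Benjamini-Hochberg over all 45037 probe sets, as for every call), 10 of the 19 probe sets fell between P1 and P12 and 0 rose, while 1.59% of all probe sets fell and 3.25% rose. The 10 belonged to Igf2bp3 (5), Hmga2 (3) and Igf2bp1 (2). Between P12 and P28, 6 fell and 3 rose, against 15.9% and 13.5% of all probe sets, so that the share that rose was near the background. By gene, 3 of 6 had a probe set that fell in the first step and 4 of 6 in the second. No share over all genes is given for this count, which genes with several probe sets meet more easily. By the probe set of highest mean, 2 of 6 genes fell in the first step and 1 of 6 in the second. Of all genes 1.85% and 15.4% did. From P1 to P28, 13 fell and 0 rose, against 17.4% and 17.6%. The median change was -1.20 from P1 to P12 and -0.30 from P12 to P28, and over all probe sets it was 0.01 and -0.05. Above background were 12 of the 19 at P1, 6 at P12 and 5 at P28, against 55.1%, 55.2% and 59.0% of all probe sets. Of those above background at the earlier age of the step, 9 of 12 fell in the first step and 2 of 6 in the second. A filter on the earlier level itself favours falls, and no share over all probe sets under it is given. These 2 counts are therefore no separate support for the falls.

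**Figure D1:**
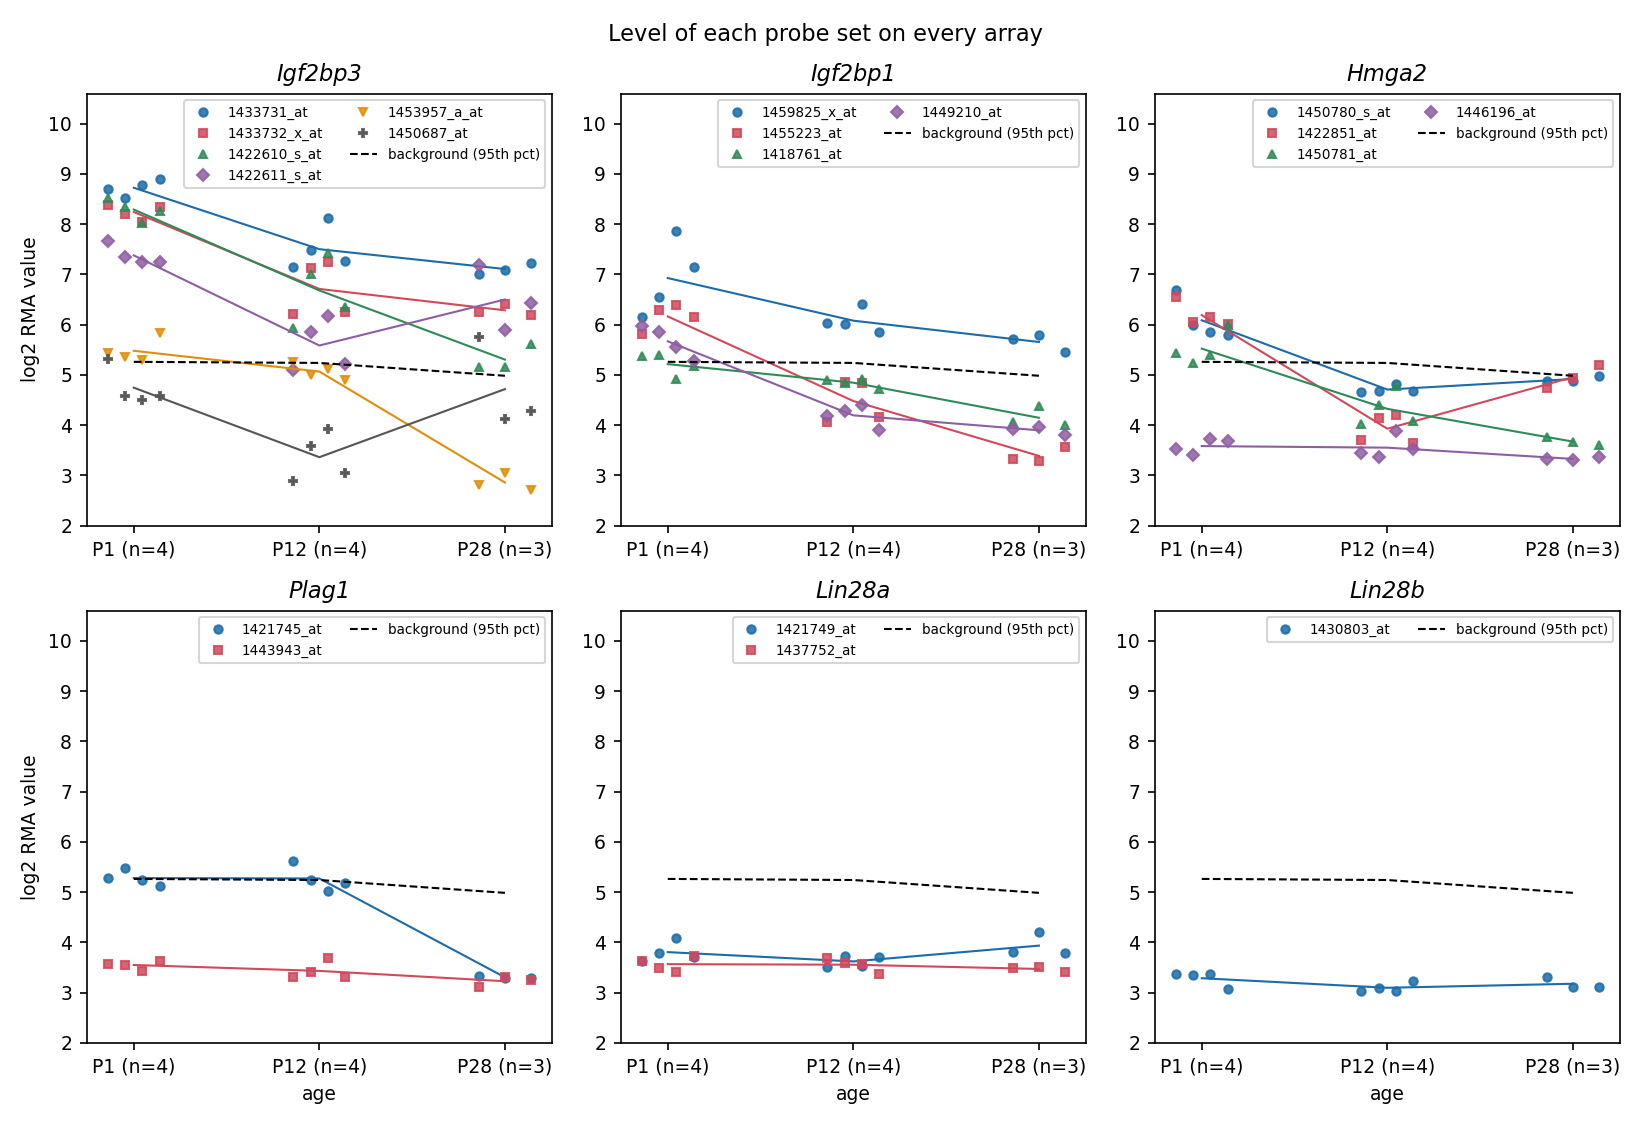
Log2 RMA value (y axis) of each probe set of Igf2bp3, Igf2bp1, Hmga2, Plag1, Lin28a and Lin28b on every array at P1 (n = 4), P12 (n = 4) and P28 (n = 3); points are arrays, solid lines join age means and the dashed line is the background level (95th percentile of receptor probe sets). Most probe sets of Igf2bp3, Igf2bp1 and Hmga2 stand highest at P1, the Plag1 probe set 1421745_at drops from 5.27 to 3.30 between P12 and P28, and those of Lin28a and Lin28b lie below the dashed line at all ages.

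Lin28a and Lin28b, the proteins that hold back let-7, were not above background at any age. The Lin28a probe set 1421749_at read 3.63, 3.79, 4.08 and 3.72 at P1, 3.51, 3.73, 3.52 and 3.72 at P12, and 3.81, 4.21 and 3.79 at P28. Its P1 and P12 arrays overlap, and all P28 arrays lie just above all P12 arrays, a difference of 0.31 ± 0.15 (SE) that did not pass (limma adjusted p = 0.126). The other Lin28a probe set, 1437752_at, stayed between 3.37 and 3.73 on all 11 arrays. The single Lin28b probe set, 1430803_at, read 3.37, 3.34, 3.36 and 3.07 at P1, 3.02, 3.10, 3.04 and 3.22 at P12, and 3.31, 3.11 and 3.12 at P28. Its changes of -0.19 ± 0.11 to P12 and 0.08 ± 0.12 to P28 did not pass (limma adjusted p = 0.407 and 0.668), and the arrays of the ages overlap. With every probe set of both genes below background, a change in either gene was not measurable here, which does not show that the RNA was absent or level.

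Igf2bp3, an RNA-binding protein of fetal tissue and tumours, fell by more than the spread between arrays on most of its probe sets. The probe set of highest mean, 1433731_at, read 8.70, 8.53, 8.78 and 8.90 at P1, 7.14, 7.49, 8.12 and 7.26 at P12, and 7.01, 7.10 and 7.22 at P28. Every P12 array was below every P1 array, whereas P28 arrays overlap those of P12. The fall to P12 was -1.22 ± 0.18 (2.33-fold, adjusted p = 0.00197, limma). The step on to P28 was -0.40 ± 0.19 and did not pass (adjusted p = 0.149, limma). It was above background on all arrays.

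A further 2 Igf2bp3 probe sets went the same way in the first step. On 1433732_x_at, whose probes may cross-hybridise, the age means ± SD were 8.24 ± 0.15, 6.71 ± 0.56 and 6.29 ± 0.11, with a fall of -1.53 ± 0.21 by P12 and a step of -0.42 ± 0.23 to P28 that did not pass. On 1422610_s_at, whose probes are shared by several transcripts, values were 8.52, 8.35, 8.03 and 8.27 at P1, 5.93, 7.01, 7.43 and 6.36 at P12, and 5.15, 5.15 and 5.62 at P28. The ages do not overlap on this probe set, which fell in both steps, by -1.61 ± 0.26 and by -1.38 ± 0.28. From P1 to P28 its change was -2.98 ± 0.28 (7.92-fold, limma adjusted p = 3.04e-06).

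The remaining Igf2bp3 probe sets took other courses. On 1453957_a_at, a probe set for alternative transcripts of the gene, values were 5.30 to 5.83 at P1, 4.91 to 5.25 at P12 and 2.71 to 3.06 at P28. Of these levels only that at P1 was above background. Its first step, -0.41 ± 0.14, did not pass (limma adjusted p = 0.116) although the arrays do not overlap. Its second, -2.21 ± 0.15, did (adjusted p = 3.7e-07, limma), but lies between 2 levels below background, so its size is not a measured fold change. The opposite order was seen on 1422611_s_at, which read 7.67, 7.36, 7.25 and 7.24 at P1, 5.09, 5.86, 6.18 and 5.22 at P12, and 7.19, 5.89 and 6.43 at P28. It fell by -1.79 ± 0.27 to P12 and then rose by 0.92 ± 0.29 (limma adjusted p = 0.0295), with P28 replicate 1 highest and P28 replicate 2 inside the range of P12. That rise no longer passed without P12 replicate 1 (0.75), P12 replicate 4 (0.79), P28 replicate 1 (0.57) or P28 replicate 3 (0.95), and the fall from P1 to P28 of -0.88 ± 0.29 no longer passed without P1 replicate 1 (-0.78), P1 replicate 2 (-0.89), P28 replicate 2 (-0.57) or P28 replicate 3 (-0.84). The sixth probe set, 1450687_at, was not above background at any age and had means of 4.75 ± 0.38, 3.36 ± 0.48 and 4.72 ± 0.90. Its fall to P12 (-1.38 ± 0.33) was lost when any P1 array, P12 replicate 1 or P12 replicate 4 was left out, with values from -1.19 to -1.47.

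P28 replicate 1 was the highest P28 array on both Igf2bp3 probe sets that rose, at 7.19 on 1422611_s_at and 5.76 on 1450687_at. On the same array every mesenchymal marker was also highest of the P28 arrays, among them Pdgfra (9.47, against 7.82 and 7.87) and Pi16 (9.71, against 8.14 and 7.60). Of the macrophage and leukocyte markers Ptprc was highest there (6.95, against 6.79 and 6.87), and the others were lowest, such as Cd68 (7.05, against 7.69 and 8.18). The erythroid markers Alas2 (10.76) and Slc4a1 (11.97) were highest there too, and Hba-a1, below background, was lowest. Of the endothelial markers Tek was highest there and the others were lowest. Age means were 7.92, 6.47 and 8.39 for Pdgfra and 7.20, 5.83 and 7.64 for Cd68, lowest at P12. Of the other mesenchymal markers Dcn, Dpt and Pi16 were also lowest at P12, though their falls from P1 did not pass. Lum (7.27, 7.41 and 9.62), Col1a1 and Col3a1 were not lowest at P12. Of the macrophage and leukocyte markers only Ptprc was not lowest at P12, and among their falls from P1 only that of Cd68 passed. The part of the cells these markers stand for was not tested. This holds for the Igf2bp3 values too.

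Igf2bp1, the closest relative of Igf2bp3 measured, is a binding protein known from the beta-actin zipcode. Its probe set 1455223_at read 5.82, 6.29, 6.39 and 6.16 at P1, 4.06, 4.86, 4.84 and 4.17 at P12, and 3.33, 3.28 and 3.56 at P28. The 3 ages do not overlap, and only P1 was above background. It fell by -1.68 ± 0.19 (limma adjusted p = 0.000329) and again by -1.09 ± 0.21 (limma adjusted p = 0.00133), although both later levels are below background.

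A similar first step was seen on 1449210_at, with 5.98, 5.86, 5.57 and 5.28 at P1, 4.19, 4.29, 4.41 and 3.90 at P12, and 3.92, 3.97 and 3.81 at P28. It fell by -1.47 ± 0.16 to P12 (limma adjusted p = 0.000201) and by a further -0.30 ± 0.17 that did not pass. Its 2 steps differed (limma adjusted p = 0.015), the first being the larger. The probe set of highest mean, 1459825_x_at, whose probes may cross-hybridise, was the only Igf2bp1 probe set above background at P12 and P28. It was above background at P1 too, and read 6.15, 6.55, 7.87 and 7.15 at P1, 6.04, 6.02, 6.40 and 5.85 at P12, and 5.71, 5.79 and 5.46 at P28. P1 replicate 1 lies within the range of P12, and the fall of -0.85 ± 0.28 to P12 did not pass (limma adjusted p = 0.104), but did with the replicate number as a block in the P1 and P12 arrays (limma adjusted p = 0.0349). It also passed with the 2 array sets (replicates 1 and 2, replicates 3 and 4) as the block (limma adjusted p = 0.0404). Leaving out 1 array gave -1.11 without P1 replicate 1, which passed, and -0.54 without P1 replicate 3, which did not. On 1418761_at, below background at all ages, values were 4.92 to 5.39 at P1, 4.72 to 4.93 at P12 and 4.01 to 4.38 at P28, and the second step, -0.70 ± 0.14, was the one that passed (limma adjusted p = 0.00236). From P1 to P28 all 4 Igf2bp1 probe sets fell, by -1.07 to -2.77, and every P28 array was below every P1 array on each.

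**Figure D2:**
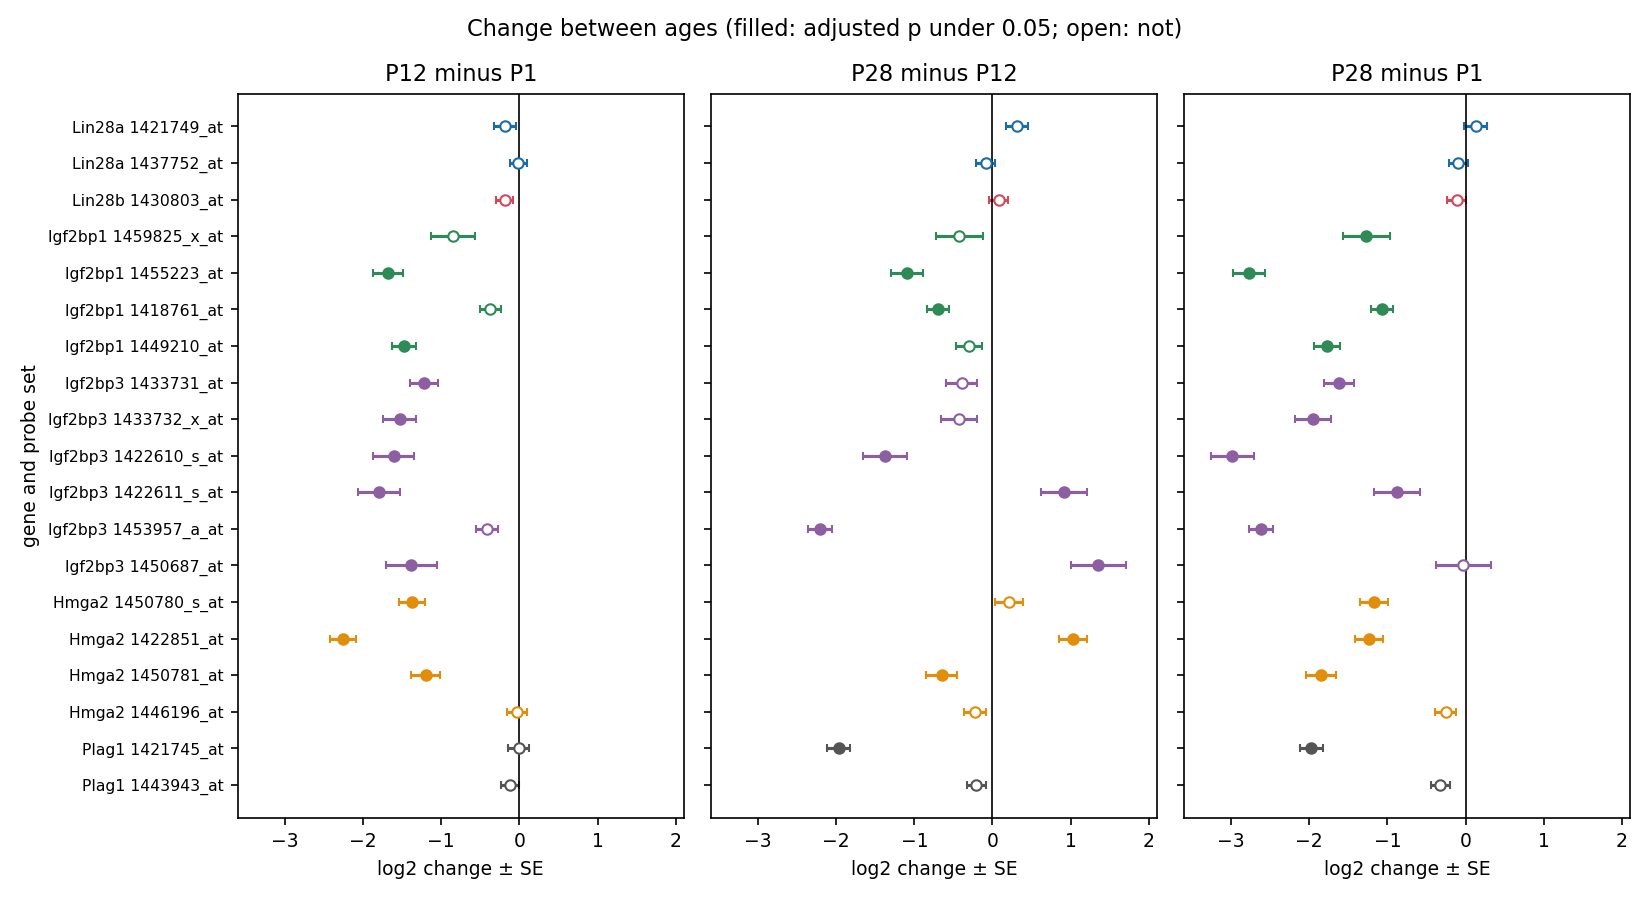
Log2 change ± SE (x axis) of each of the 19 probe sets (y axis) for P12 minus P1, P28 minus P12 and P28 minus P1; filled points passed an adjusted p of 0.05 and open points did not. In the left panel 10 points are filled and all lie below 0, and in the middle panel 6 lie below 0 and 3 above.

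The 2 Igf2bp genes were compared within each array by their probe sets of highest mean, 1459825_x_at for Igf2bp1 and 1433731_at for Igf2bp3. For Igf2bp1 the comparison thus rests on a probe set whose probes may cross-hybridise. The Igf2bp1 minus Igf2bp3 difference was -1.80 ± 0.68 (SD, n = 4) at P1, -1.42 ± 0.25 (n = 4) at P12 and -1.45 ± 0.27 (n = 3) at P28. It shifted by 0.37 to P12 (exact two-sided permutation p = 0.314, adjusted over 6 tests 0.628) and by -0.03 from P12 to P28 (exact permutation p = 0.914). The shift to P12 ranged from 0.12 without P1 replicate 1 to 0.67 without P1 replicate 3. Unequal change of the pair was not detectable with these arrays. For Lin28a and Lin28b the shift was 0.01 to P12 (exact permutation p = 1.0) and 0.23 to P28 (exact permutation p = 0.114, adjusted 0.628), with neither above background. The smallest p such a test can give is 0.0286 for 4 against 4 arrays and 0.0571 for 4 against 3, so that comparisons with P28 could not reach 0.05.

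Hmga2 fell between P1 and P12 on 3 of its 4 probe sets, each above background at P1 and below it at P12. On 1422851_at values were 6.55, 6.05, 6.15 and 6.02 at P1, 3.71, 4.15, 4.21 and 3.65 at P12, and 4.75, 4.93 and 5.19 at P28. The P12 arrays were lowest, and the P28 arrays lay between both other ages without overlap. The fall to P12 measured -2.26 ± 0.17, and since the P12 level is below background it was at least 1.93-fold, the P1 mean against the background level of P12. The value then rose by 1.03 ± 0.18 (limma adjusted p = 0.000743), and P28 replicate 1 was the lowest of the P28 arrays. The P28 mean of 4.96 is at the background level of 4.98, so that the rise is between 2 levels that do not stand above background. The test of the difference of the 2 steps gave an adjusted p of 4.4e-05 (limma).

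The probe set of highest mean for Hmga2, 1450780_s_at, read 6.69, 6.00, 5.86 and 5.80 at P1, 4.66, 4.68, 4.82 and 4.68 at P12, and 4.89, 4.88 and 4.99 at P28. All P12 and P28 arrays were below all P1 arrays. It fell by -1.38 ± 0.17 to P12 (limma adjusted p = 0.000516) and the step of 0.21 ± 0.18 to P28 did not pass, although each P28 array was above each P12 array. On 1450781_at values were 5.44, 5.25, 5.41 and 6.00 at P1, 4.03, 4.41, 4.78 and 4.09 at P12, and 3.76, 3.66 and 3.61 at P28. There the ages separate in descending order, with a fall of -1.20 ± 0.18 and a second of -0.65 ± 0.20 (limma adjusted p = 0.0232). The second no longer passed with a replicate block (-0.61) or without P12 replicate 2 (-0.62), P12 replicate 3 (-0.50), P28 replicate 2 (-0.65) or P28 replicate 3 (-0.62). The fourth, 1446196_at, read 3.31 to 3.88 on all arrays, below background. From P1 to P28 the 3 probe sets fell by -1.17 ± 0.18, -1.23 ± 0.18 and -1.85 ± 0.20, and they do not give 1 direction for the step from P12 to P28.

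The first-step falls are also given within pairs of arrays. The probe sets were called over these same arrays, so the split describes the falls and is no separate support. P1 and P12 replicates 1 and 2 had the larger Gapdh end bias, and replicates 3 and 4 the smaller. The 10 probe sets that fell between P1 and P12 changed by -2.37 to -1.13 within replicates 1 and 2 and by -2.16 to -1.05 within replicates 3 and 4. For Hmga2 1422851_at the values were -2.37 and -2.16, and for Igf2bp3 1433731_at -1.30 and -1.15. Of the probe sets not called, Lin28a 1437752_at changed by 0.08 and -0.10 and Plag1 1421745_at by 0.06 and -0.07. The rest of those not called were lower at P12 in both pairs. Within replicates 1 and 2 alone 5 of the falls passed.

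Plag1 passed the test in the second step, P12 to P28, and not in the first. Its probe set 1421745_at read 5.27, 5.49, 5.24 and 5.12 at P1, 5.62, 5.25, 5.02 and 5.18 at P12, and 3.34, 3.30 and 3.28 at P28. P1 and P12 overlap at the background level, and all P28 arrays lie below both. The change was -0.01 ± 0.13 to P12 (limma adjusted p = 0.985) and -1.97 ± 0.15 to P28 (limma adjusted p = 7.12e-07), and the 2 steps differed (limma adjusted p = 0.000295). With the P28 level below background, the fall to P28 was at least 1.22-fold. The other Plag1 probe set, 1443943_at, was below background at 3.12 to 3.69 and did not pass in any comparison.

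**Figure D3:**
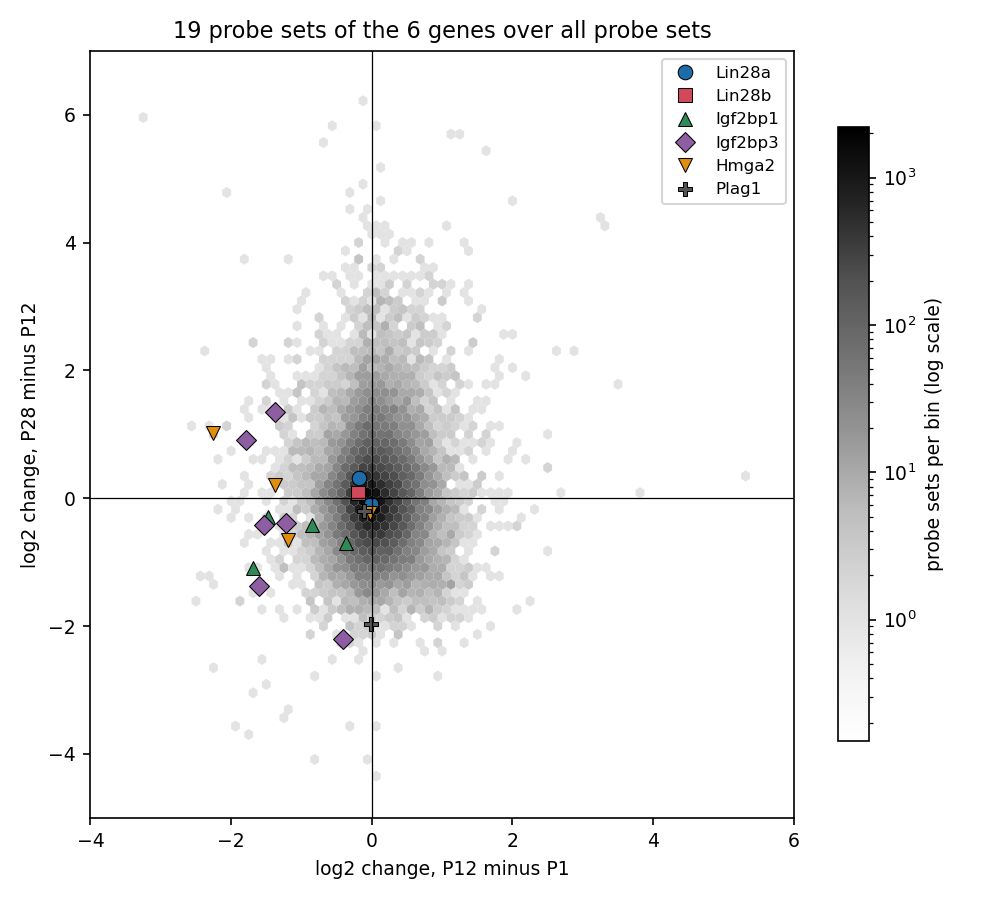
Log2 change from P1 to P12 (x axis) against log2 change from P12 to P28 (y axis); coloured points are the 19 probe sets by gene and grey hexagons count all 45037 probe sets per bin on a log scale. Hmga2 1422851_at lies at -2.26 on the x axis, and Plag1 1421745_at lies at -0.01 on the x axis and -1.97 on the y axis.

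The timing of the measured values thus differed among probe sets, many of them below background at P12 or P28. The difference of the 2 steps passed for 7 of the 19 (12.0% of all probe sets): Igf2bp1 1449210_at, Igf2bp3 1422611_s_at, 1453957_a_at and 1450687_at, Hmga2 1450780_s_at and 1422851_at, and Plag1 1421745_at. On 5 of these the first step was lower than the second, and on 1453957_a_at and Plag1 1421745_at the second was lower. Of the 7 only Igf2bp3 1422611_s_at was above background at every age. Igf2bp3 1450687_at was not at any age, Plag1 1421745_at not at P28, and the rest neither at P12 nor at P28. Most of the second steps compared thus have a level that is not above background. Any difference among the ages, by the moderated F test, passed for 14 of 19 and for 36.3% of all probe sets. Arrays did not overlap between P1 and P12 for 11 probe sets, all lower at P12 (4.16% of all probe sets are), and between P1 and P28 for 15, all lower at P28 (21.4% of all). Between P12 and P28 there were 8 lower (19.9% of all) and 4 higher (15.4% of all).

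Genes whose levels followed those of the fetal genes were looked for over the 11 arrays among 2498 genes with an SD of at least 0.5. These correlations describe arrays that share ages and carry no test. For Igf2bp3 the highest Pearson r was with Egfl6, a secreted matrix protein (0.976; age means 6.00, 4.58 and 3.90), Slc2a13, a transporter of myo-inositol (0.959), and Dcx, a microtubule-binding protein (0.956; 8.90, 6.43 and 4.78). Hmga2 was most like Col17a1, a transmembrane collagen (0.964; 8.05, 6.16 and 6.10), Mertk, a receptor tyrosine kinase (0.963), and Nrbp2 (0.954). Igf2bp1, by 1459825_x_at, was most like Boll (0.929; 5.54, 4.73 and 4.74), Ang2 (0.924; 4.66, 3.93 and 4.02) and Egfl6 (0.889). Ang2 was not above background at any age, and Boll and Egfl6 were not at P12 or P28. For Plag1 the genes were the zinc finger genes Zfp553 (0.990; 7.68, 7.76 and 6.46) and Zfp57, which maintains imprints (0.985; 6.47, 6.45 and 4.85), and Rif1 (0.985). Dcx and Zfp57 were not above background at P28. Apart from Ang2, whose change was not measurable, the first 3 sets hold genes lowered by P12. The Plag1 set holds genes level to P12 and lower at P28. These courses follow from picking the genes by their likeness to the member.

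The other genes around these proteins were counted by 1 probe set per gene, that of highest mean. Over all 18193 genes, 3.94% rose and 1.85% fell between P1 and P12, 15.5% and 15.4% between P12 and P28, and 19.9% and 16.3% between P1 and P28. Of the close relatives, Plagl1, an imprinted zinc finger gene, had means of 13.21, 13.05 and 12.17, and fell by -0.87 ± 0.18 between P12 and P28 (limma adjusted p = 0.00229), which no longer passed with the Gapdh end difference as a covariate (-0.44). Its change from P1 to P12 was -0.16 ± 0.17 and did not pass, but as the mean of its probe sets it was -0.75 and passed (limma adjusted p = 0.00479). Plagl2 did not pass in any comparison (7.60, 7.46 and 7.28). Hmga1 is not analysed here.

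Of the 18 genes of microRNA processing and let-7 control, 1 rose and 0 fell between P1 and P12, and 1 rose and 6 fell between P1 and P28. Dis3l2, the nuclease that degrades uridylated let-7 precursors, rose by 1.02 ± 0.23 to P12 and stood 1.12 ± 0.25 above P1 at P28. Dgcr8, the partner of Drosha in the first cut, fell by -1.31 ± 0.18 from P1 to P28, Khsrp, which aids let-7 processing, by -1.01 ± 0.32, Tut4, which adds uridines with Lin28, by -0.64 ± 0.18, and Ago2, the slicing Argonaute, by -0.56 ± 0.16. The median of the list was -0.31, against -0.02 over all genes. Most of these calls were not stable, although the covariate below is itself lowest at P28 and cannot be fully told apart from age. The 6 that fell became 3 without P1 replicate 2 or P28 replicate 2, 1 with the Gapdh end difference as a covariate (Khsrp -0.04, Tut4 -0.31 and Ago2 -0.18) and 12 after a further quantile normalization. The rise of Dis3l2 to P12 no longer passed without any single P1 array or P12 replicate 1 (0.95 to 1.07), nor as the mean of its probe sets (0.21), and from P1 to P28 it was 0.59 with the covariate and 0.05 as the mean of its probe sets, neither of which passed.

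Of the 25 let-7 target genes measured of 28 listed, 2 rose and 3 fell between P1 and P12, and 6 rose and 9 fell between P1 and P28. Rising most by P28 were Myc, a growth transcription factor (2.03 ± 0.21), Irs2, an insulin receptor adaptor (1.73 ± 0.21), Ccnd1, cyclin D1 (1.73 ± 0.22), and Bach1, a heme-binding repressor (1.38 ± 0.21). Falling most were Peg10, an imprinted gene derived from a retrotransposon (-4.69 ± 0.30), Insr, the insulin receptor (-1.80 ± 0.17), Dna2, a replication nuclease (-1.61 ± 0.21), and Cdc25a, a cell cycle phosphatase (-1.32 ± 0.13). Peg10 had means of 9.87, 8.19 and 5.18 and fell in both steps, as did Insr with 8.95, 8.08 and 7.15. Ccnd1 was 9.55, 11.20 and 11.28, all of its rise lying before P12. The fall of Insr to P12 no longer passed when its probe sets were averaged (-0.31), and the 2 that rose to P12 became 1 when any of P1 replicates 3 and 4 and P12 replicates 1 and 2 was left out. The list had a median change of -0.18 from P1 to P28, and moved in both directions. Over the same step from P12 to P28 the proliferation markers fell, with summed levels of 12.92 to 13.61 and 11.84 to 12.37, and their part in the falls of cell cycle genes was not tested.

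**Figure D4:**
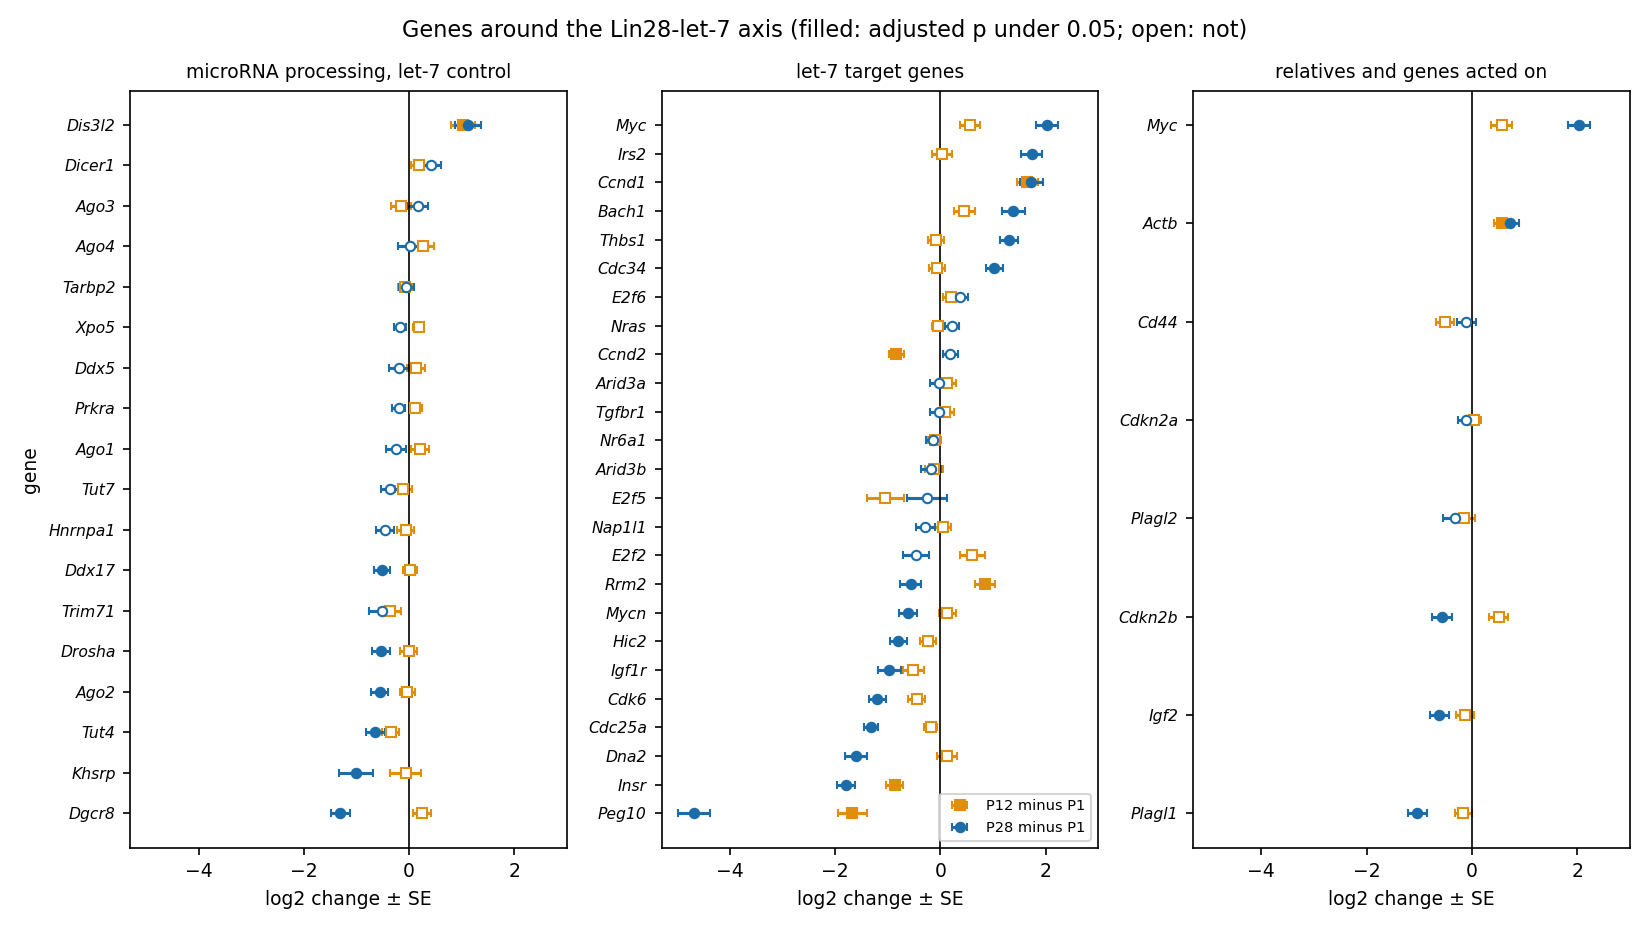
Log2 change ± SE (x axis) of genes of microRNA processing and let-7 control (left), let-7 target genes (middle) and relatives and genes acted on (right), for P12 minus P1 (squares) and P28 minus P1 (circles); filled symbols passed an adjusted p of 0.05. Dis3l2 at 1.12 and Dgcr8 at -1.31 bound the left panel at P28, and Peg10 at -4.69 lies farthest from 0 in the middle.

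Of 6 genes measured that the fetal proteins act on, 2 rose and 2 fell from P1 to P28. Igf2, the fetal growth factor that Plag1 activates and the Igf2bp proteins bind, had means of 12.27 ± 0.31, 12.14 ± 0.16 and 11.65 ± 0.28. Its fall of -0.62 ± 0.18 from P1 to P28 (limma adjusted p = 0.0157) no longer passed without P28 replicate 1 (-0.46) or with the Gapdh covariate (-0.38). Actb, beta-actin, rose by 0.72 ± 0.17, and Myc rose as given above. Cdkn2b, a cell cycle inhibitor, was 5.82, 6.33 and 5.25, and its fall of -0.57 ± 0.20 no longer passed when any P1 array other than replicate 3, or P28 replicate 1 or 2, was left out (-0.42 to -0.59), nor with the Gapdh covariate (-0.31). Cdkn2a, its neighbour and a gene that Hmga2 is known to lower in neural stem cells, was below background at all ages (4.54, 4.57 and 4.42). H19 is not analysed here.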

How the data were processed

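The authors deposited log2 expression values per probe set for 11 Affymetrix mouse expression arrays. Per the submitters' processing notes, RMA, the affy package and Affymetrix Expression Console were used, with no version or order given. Per the labels' protocols, cells were sorted by GFP with propidium iodide to leave out dead cells, RNA was purified with a QIAGEN RNeasy Micro kit and labelled with the NuGEN Encore Biotin Module. Whether the P28 arrays were processed together with the others is not given in the sources used here. Array medians were 5.50 to 5.58, and the lowest value was -0.78 to 0.48 on P1 and P12 arrays and 1.65 to 2.09 on P28 arrays. The values were used as deposited.

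Arrays were grouped by age as titled, which for P28 goes against the start of the internal sample names. Of 45101 probe sets, 64 control probe sets were left out and 45037 fitted with limma 3.58.1 in R 4.3.3 (lmFit on age means over all arrays, contrasts, eBayes with 8 residual and 5.82 prior degrees of freedom). A change was called at a Benjamini-Hochberg adjusted p under 0.05 over all probe sets. Symbols came from the platform annotation, in which 34958 probe sets had 1 symbol, 932 several and 9211 none. The genes, lists and tests were chosen with earlier results of these data known. All probe sets of the 6 genes were named. From each list of relatives, processing genes, let-7 targets and genes acted on, up to 4 genes that rose and up to 4 that fell most from P1 to P28 were named, and Igf2 always, and for likeness the 3 genes of highest Pearson r. Lists of satellite cell, mesenchymal, endothelial, macrophage, erythroid, Schwann cell and melanocyte, myonuclear and proliferation markers were counted. Of the Schwann cell and melanocyte markers 1 of 5 (Mitf) rose from P1 to P28 and 0 fell, with Dct not above background. Of 7 myonuclear markers 3 rose (Ckm, Acta1 and Mymk) and 2 fell (Myh3 and Myh8), and of 9 satellite cell markers 3 rose (Sdc4, Des and Cdh15). Arrays of P1 and P12 with the same replicate number deviated together (r = 0.143, 0.207, 0.311 and 0.182 over probe sets). Differently numbered arrays did so too within replicates 1 and 2 and within 3 and 4 (0.14 to 0.247) but not across these sets (-0.286 to -0.113), so that number and array set cannot be told apart. Arrays of P28 did not pair with them (-0.122 to 0.093). In simulated data for P12 against P1, the fit recovered 7.46%, 83.6% and 100% of changes of 0.5, 1 and 2 on the log2 scale. The small number of arrays limits the precision.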

Additional observations from a re-analysis of the deposited data

Results flagged for a closer look

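In 3 of 38 sets of 4 arrays (a probe set at P1 or at P12), 1 array stood apart from the other 3 by more than 0.829 of the whole range, the critical value of Dixon's test at 95%. Chance gives about 1 in 20. Lin28b 1430803_at was lowest on P1 replicate 4 at 3.07, where the others read 3.34 to 3.37, all below background. Igf2bp3 1450687_at was highest on P1 replicate 1 at 5.32, where the others read 4.49 to 4.59, and without that array its fall to P12 was -1.19 and did not pass. Hmga2 1450780_s_at was highest on P12 replicate 3 at 4.82, where the others read 4.66 to 4.68, a gap small beside its fall of -1.38 from P1.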

How the results depend on the processing

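Under 29 other settings, 1131 of 1174 member results stayed on their side of the threshold (1105 with their direction, and 26 that did not pass in either setting with the other sign), 30 no longer passed, 13 newly passed and 0 called values changed direction. With 1 probe set per gene (6 genes), 2 fell from P1 to P12, 1 fell and 0 rose from P12 to P28, 4 fell from P1 to P28, 2 had unequal steps and 4 passed the F test. With all probe sets of a gene averaged these were 3, 2 and 0, 4, 2 and 4, as these settings test 6 genes in place of 19 probe sets. Within replicates 1 and 2 alone, 5 fell to P12. With the Gapdh end difference as a covariate 1 rose from P12 to P28, while Igf2bp3 1422611_s_at (0.95) and 1450687_at (1.43) no longer passed at a similar size, and the cause was not tested. Of those above background at the higher of the 2 ages, 9 of 12 fell between P1 and P12, and 2 of 6 fell and 1 of 5 rose between P12 and P28. As probe sets enter here through the age at which they are high, these counts are no separate support. This setting was chosen after seeing the data, as were the block and split of the P1 and P12 arrays. Leaving out each array in turn gave 9 to 10 falls to P12, 5 to 6 falls and 2 to 3 rises from P12 to P28, 12 to 14 falls from P1 to P28, 7 to 9 unequal steps and 14 by the F test. The replicate block gave 10, 6 and 13 falls over all arrays and 11 falls to P12 in the P1 and P12 arrays. It also ended the rise of Igf2bp3 1422611_s_at (0.83) and let Igf2bp1 1449210_at pass from P12 to P28 (-0.41). The background level decides how many count as present: 8 at P28 by the 90th percentile of receptor probe sets, 6 at P1 and 2 at P28 by the 99th, and 13 at P12 and 12 at P28 by the highest Trp control probe set. As the mean of all its probe sets, Rrm2 changed by 0.30 from P1 to P28 in place of -0.57, Ccnd2 by -0.38 in place of 0.19, and Dicer1 by -0.36 in place of 0.42, and the cause was not tested. Low signal limits Lin28a and Lin28b.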

Other observations

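Xist, the RNA of the inactive X chromosome, read 11.29 on P1 replicate 1, 5.82 to 5.96 on P1 replicates 2 to 4, 10.59 to 11.70 at P12 and 10.66 to 11.81 at P28. Sex and age therefore cannot be told apart for most P1 arrays. On P1 replicate 1, the P1 array with high Xist, Igf2bp3 1433731_at read 8.70 and Hmga2 1422851_at read 6.55, both above every P12 array. The Igf2bp1 probe sets that fell to P12 were above every P12 array there too. They read 5.82 (1455223_at, at most 4.86 at P12) and 5.98 (1449210_at, at most 4.41 at P12). Igf2bp1 1459825_x_at, whose fall to P12 did not pass, read 6.15, inside the range of P12 (5.85 to 6.40).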
